A study of Homo sapiens with 6 samples.

Results

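The interferon response and MHC class I genes described here were 40 genes named in advance by symbol, and every one of them was found among the 57232 genes of the deposited table. They were 8 genes of signaling and sensing, 24 effectors and 8 genes of antigen presentation. No measured value was used to choose them, although the list was drawn up with earlier results of these data known. RNA was sequenced from IMR90 cells, a line of human fetal lung fibroblasts, that had been infected with an empty vector (3 libraries) or with ARID1B cDNA (3 libraries). Both groups were at passage 13, carried a puromycin-selected insert, with selection ending on day 4, and were collected 6 days after infection, so that the cDNA was the labelled difference between them. ARID1B is a subunit of the SWI/SNF chromatin remodelers, and the study expressed it in IMR90 cells to ask how it acts on senescence. IMR90 is a single line, so the groups share 1 genetic background, and the study describes the 3 libraries of a group as biological replicates without saying whether the infections were separate. If they were not, the p-values given here measure only the spread between these libraries.

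Interferons are secreted proteins that cells release when they sense viral or misplaced nucleic acid. Bound to their receptors, type I interferons activate kinases of the JAK family, and STAT2 joins IRF9 and a further STAT protein in a complex that binds the interferon-stimulated response element (ISRE) of its target promoters. The targets include antiviral effectors and much of the MHC class I pathway, in which the immunoproteasome cuts peptides, the TAP transporter carries them into the endoplasmic reticulum, and class I heavy chains with B2M present them at the surface. Fibroblasts are able to make and to answer type I interferons, and a low tonic expression of many of these genes is known in cultured fibroblasts.

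The promoters of the members shared the ISRE core more often than those of other genes, but the members had been listed as known interferon targets, so this is a description. The core was searched as GAAA, any 2 bases, GAAA on both strands, in RefSeq windows (GRCh38.p14) from 250 bases before to 50 bases after the start site. Of the 40 members, 31 had a window, with DDX58 matched under its current symbol RIGI, and 19 of these (61.3%) held the core. It stood in 1 of 6 signaling and sensing genes with a window, in 14 of 18 effectors and in 4 of 7 antigen presentation genes. Among 8076 genes tested with a window, 3.89% held it, as did 3.57% of all 35116 windows. The GAS element, searched as TTC, any 3 bases, GAA, which reads the same on both strands, was in 10 of the 31 members (32.3%). It was in 8.51% of the genes tested with a window and in 7.66% of all windows. A gene counted as holding a motif if any of its windows did. The searches were made separately, so a base may belong to matches of both motifs. STAT2, DDX58, IFI16, UBE2L6, SAMHD1, PSMB9, HLA-B and HLA-C held neither motif in this window. IRF3, IRF7, IFIT2, MX2, OAS2, OASL, USP18, IFITM2 and HLA-E had no entry. The core-bearing stretches of the members whose values are given library by library below are shown so that the shared element can be seen beside those values, with TAP1 added after its values were seen because it lies between PSMB8 and PSMB9 in the order TAP2, PSMB8, TAP1, PSMB9 on chromosome 6. Each runs 5′ to 3′ along the strand of its gene, and capitals mark the GAAA blocks of the core, or TTTC where the core lies on the other strand. In the order printed, they lie at chr1:1013354-1013429 (plus strand), chr12:112938301-112938479 (plus strand), chr11:320856-320942 (minus strand), chr6:32844042-32844081 (minus strand), chr6:32838758-32838827 (minus strand), chr15:44711343-44711418 (plus strand) and chr6:32853793-32853868 (minus strand).
ISG15: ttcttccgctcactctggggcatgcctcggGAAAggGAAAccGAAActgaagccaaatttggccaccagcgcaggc
OAS3: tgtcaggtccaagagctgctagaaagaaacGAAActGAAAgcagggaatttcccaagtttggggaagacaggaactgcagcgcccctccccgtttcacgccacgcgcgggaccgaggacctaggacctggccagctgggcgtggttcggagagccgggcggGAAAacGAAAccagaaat
IFITM3: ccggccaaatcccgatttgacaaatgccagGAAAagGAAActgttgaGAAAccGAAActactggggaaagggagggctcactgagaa
PSMB8: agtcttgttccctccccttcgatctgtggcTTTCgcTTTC
TAP2: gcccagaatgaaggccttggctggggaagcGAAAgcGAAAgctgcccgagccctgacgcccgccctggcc
B2M: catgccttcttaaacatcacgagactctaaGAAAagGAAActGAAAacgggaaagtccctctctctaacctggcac
TAP1: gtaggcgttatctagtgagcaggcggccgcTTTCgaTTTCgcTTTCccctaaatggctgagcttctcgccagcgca

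ARID1B itself measured 2.29, 1.31 and 2.05 FPKM in the vector libraries (replicates 1, 2 and 3, the order used throughout) and 32.5, 21.0 and 28.3 FPKM in the ARID1B libraries, so that its level followed the labels (log2 change 3.29, standard error (SE) 0.208, limma adjusted p = 0.0255). Vector replicate 2 stood apart, scoring 48.5 on the leading principal component (63.8% of variance) against -20.0 to 3.63 in the other 5 libraries. Each replicate 3 lay near a mixture of replicates 1 and 2 of its group, with 80.6% (vector) and 68.7% (ARID1B) of replicate 1. Among the 28 members tested, replicate 3 lay between replicates 1 and 2 in 23 for the vector and in 17 for ARID1B. The same held for 85.0% (vector) and 69.2% (ARID1B) of all genes. The median distance from the mixture was 3.43% and 5.19% for the members, beside 3.05% and 4.13% for all genes. If the replicates 3 are not independent of the others, an n of 3 is too high and the SDs and p-values printed here may be too small, also without vector replicate 2, where the vector group is replicates 1 and 3. Library totals read from the whole-read steps in low FPKM values were between 63386813 and 91924514 reads. All 9 lung fibroblast markers had a mean of at least 1 FPKM, with sums of 1947 to 2631 FPKM in the vector libraries and 1912 to 2667 FPKM in the ARID1B libraries. Within that list vector replicate 2 was the lowest library for some markers (COL3A1 at 38.3 against at least 125 FPKM, LUM at 4.21 against at least 33.0 FPKM) and the highest for VIM (846 against 428 to 622 FPKM) and THY1 (73.2 against 58.9 to 61.5 FPKM). No blood marker of 8 reached a mean of 1 FPKM, with summed levels from 0.12 to 0.31 FPKM and CD3E at 0. The epithelial sum was 14.5 FPKM in vector replicate 2 and 4.01 to 6.46 FPKM elsewhere, nearly all of it KRT19, with KRT5 and SFTPC at 0. The endothelial sum was 0.883 FPKM there and 1.82 to 3.66 FPKM elsewhere, mostly TEK, with CDH5 at 0. The part of these markers in the values below was not tested.

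Interferon response and MHC class I genes were expressed in both groups, and none of the 28 that could be tested differed between ARID1B and vector beyond the test's threshold. Only 3 of 10416 genes passed it, and ARID1B itself, at a log2 change of 3.29, did so with a limma adjusted p of 0.0255. Not passing therefore does not show that a member was unchanged. In bulk RNA, fewer cells expressing a gene and less of its RNA per cell cannot be told apart. FPKM divides the fragments of a gene by its length and by the library's total, so it is a level per length by which genes can be ranked. IFITM3 was the highest member at a mean of 117 FPKM over the 6 libraries, followed by B2M (87.6), HLA-E (54.1), IFITM2 (42.7), HLA-B (34.7) and ISG15 (31.4). The effectors spanned the whole range. Of the 24, 15 reached the mean of 1 FPKM needed for the test, with a median of 6.06 FPKM among them, and 9 stayed below it. All 8 antigen presentation genes reached it, with a median of 14.5 FPKM, and 5 of the 8 signaling and sensing genes did, with a median of 4.74 FPKM.

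**Figure D1:**
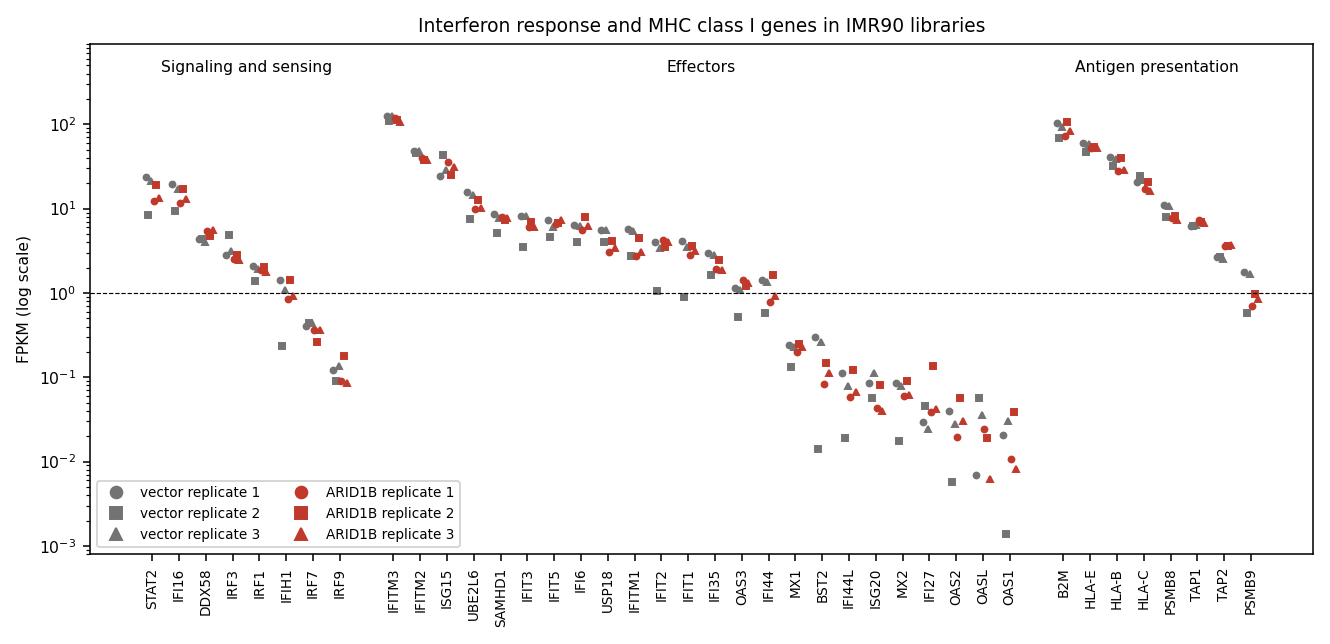
FPKM of each of the 40 members in each of the 6 libraries on a log axis, grouped by role and ordered by mean level within each role. Gray marks vector and red ARID1B, the marker shape gives the replicate number, and the dashed line is 1 FPKM. A block of effectors from MX1 to OAS1 lies below the line in every library, and the gray square of vector replicate 2 is the lowest point of many genes.

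The ranking of levels carries an uncertainty from gene length. The length that turned reads into FPKM was compared with the union of annotated exons in GENCODE v29, and it was over 1.5 times as long in 21 of 40 members, with ratios from 0.51 for SAMHD1 to 3.61 for IRF3. Per union of exons IFITM3 (185) and B2M (153) were again the highest, but ISG15, sixth by FPKM, fell to 23.7, below HLA-C (48), STAT2 (27.7) and IFI16 (26.7). IRF7 would stand at 1.3 in place of its 0.38 FPKM and IFIH1 at 1.1, both above 1. The length is the same in all libraries of a gene, so ratios of FPKM between ARID1B and vector do not contain it. The filter at 1 FPKM does. It also enters the log2 changes and their p-values, since these were taken on log2(FPKM + 1), where the pseudocount weighs more on lower FPKM.

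The 12 members below the filter were mostly classical markers of a strong interferon response. They were IRF7, IRF9 and the RNA sensor IFIH1 among signaling and sensing genes, and ISG20, IFI27, IFI44L, MX1, MX2, OAS1, OAS2, OASL and BST2 among the effectors. IFIH1 missed the filter narrowly at a mean of 0.991 FPKM, with 0.234 FPKM in vector replicate 2 and 0.858 to 1.44 FPKM in the other libraries. The other 11 were below 0.5 FPKM in every library. MX1, an antiviral GTPase, lay between 0.132 and 0.25 FPKM, on 144 to 254 reads per library. OAS1, which makes the oligoadenylates that activate RNase L, was covered by 1 to 23 reads per library and OASL by 2 to 18, so that at this depth no difference between the groups could be read from them. IRF9 lay between 0.0857 and 0.18 FPKM, but every 50-base window of its transcript is also part of another annotated gene, AL136295.5, so its reads may have been split or dropped in counting. These 12 genes entered only the fit without a filter, where 0 passed an adjusted p of 0.05 from limma and 0 an unadjusted one, with log2 changes from -0.10 to 0.15. Reads were not few in all of them, since IFIH1 had 120 to 658 and IRF7 176 to 358 per library.

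Of the 28 members tested, 0 were higher and 0 lower in ARID1B at an adjusted p under 0.05 from limma, where 0.0288% of all 10416 genes tested (3 genes) passed. At an unadjusted p under 0.05, 2 members were higher (DDX58 and TAP2) and 2 lower (USP18 and IFITM2), beside 4.64% of all genes higher and 5.94% lower. Of the members, 12 had a positive and 16 a negative log2 change, taken as ARID1B minus vector on log2(FPKM + 1), with a median of -0.03 beside -0.02 over all genes tested. The changes lay between -0.41 and 0.45, and in 18 of the 28 they were smaller than the pooled SD of the replicates. The groups did not overlap in 4 members that were higher in every ARID1B library (DDX58, OAS3, TAP1 and TAP2) and in 2 that were lower (IFITM2 and HLA-C). Among all genes tested the same held for 9.44% and 11.1%. OAS3 passed the filter only through the ARID1B group, where it is high (0.920 FPKM with the vector and 1.32 FPKM with ARID1B), and PSMB9 only through the vector group, so both had to differ to be tested. Of the 26 members with both group means at 1 FPKM or more, 3 were higher and 2 lower in every ARID1B library. The members' counts lay near these backgrounds and are no result about the members. IFITM2 and HLA-C no longer had groups apart once GC content and transcript length were corrected for. That left 0 members lower in every ARID1B library, beside 10.1% of all genes in that fit.

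**Figure D2:**
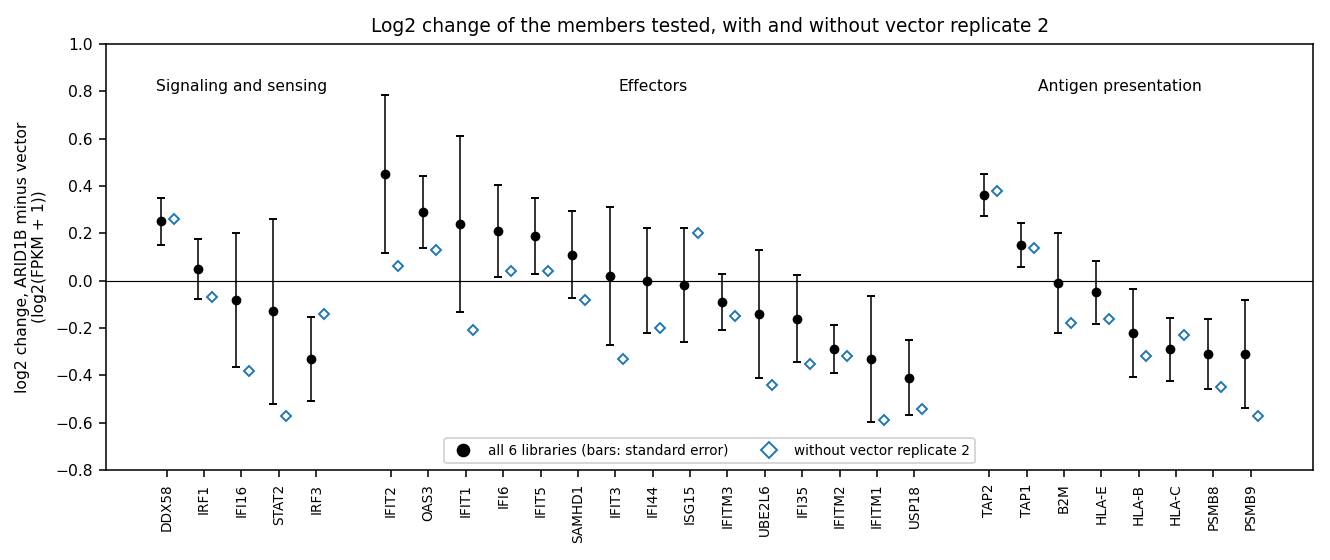
Log2 change (ARID1B minus vector, on log2(FPKM + 1)) of the 28 members tested, by role. Black points use all 6 libraries and bars are standard errors, and open blue diamonds are the same change without vector replicate 2. Black points lie from -0.41 to 0.45, and most diamonds lie below them, with a median of -0.19 against -0.03.

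Vector replicate 2 carried much of the spread of these genes. It was the lowest of the 6 libraries in 16 of 28 members, beside 37.5% of all genes tested, and vector replicate 1 was the highest in 15 of 28, beside 22.2%. Measured from each gene's mean, the median member stood at -0.31 on the log2 scale in vector replicate 2, and at 0.21 and 0.12 in vector replicates 1 and 3. In the ARID1B libraries the medians were -0.10, 0.09 and -0.09. The 3 ARID1B libraries therefore lay between the highest and lowest vector libraries for the median member. Each of these medians is a description of libraries, and for all genes tested the medians were within -0.04 to 0.02.

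**Figure D3:**
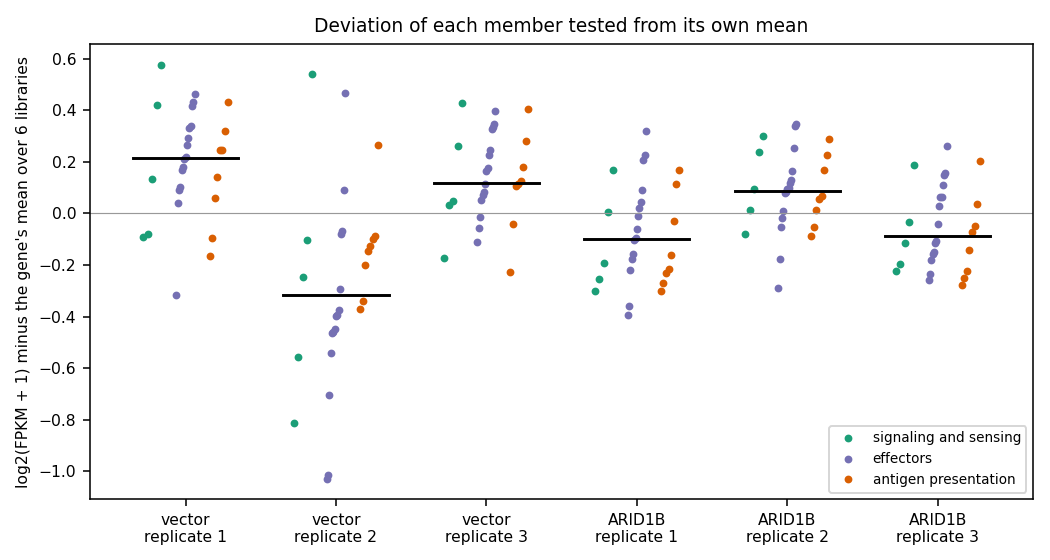
Each dot is 1 of the 28 members tested, plotted in each library as log2(FPKM + 1) minus the gene's mean over the 6 libraries, and black bars are medians. Green, purple and orange mark signaling and sensing genes, effectors and antigen presentation genes. The bar lies at -0.31 in vector replicate 2 and between -0.10 and 0.21 in the other libraries.

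Without vector replicate 2, 8 members had a positive and 20 a negative change, with a median of -0.19. Of all genes tested, 47.8% were positive in this fit, with a median of -0.01. At an adjusted p under 0.05 from limma 0 members were higher and 2 lower (PSMB8 and PSMB9), in a fit where 1.20% of all genes passed higher and 1.91% lower. Leaving aside PSMB9, which passed the filter through the vector group alone, 1 was lower. Without adjustment, 2 members were higher and 9 lower with p under 0.05, beside 10.0% and 13.7% of all genes. The groups did not overlap in 4 members on the higher side and in 13 on the lower side, beside 18.8% and 23.9% of all genes. This fit compares 2 vector libraries with 3 ARID1B libraries, and vector replicate 3 lies near vector replicate 1.

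Signaling and sensing genes had a median log2 change of -0.08 among the 5 tested, and 3 of the 5 had a negative change. DDX58 (ENSG00000107201), which encodes the cytosolic RNA sensor RIG-I, stood at 4.36, 4.32 and 4.07 FPKM with the vector and 5.43, 4.77 and 5.51 FPKM with ARID1B. Every ARID1B library was above every vector library. Its means were 4.25 ± 0.156 FPKM with the vector and 5.24 ± 0.406 FPKM with ARID1B (SD, n = 3 each), a log2 change of 0.25 (SE 0.101, limma adjusted p = 0.468), which was 0.11 with GC content and length corrected for. IRF3 (ENSG00000126456), the transcription factor that nucleic acid sensing activates, stood at 2.84, 4.89 and 3.15 FPKM with the vector and 2.55, 2.84 and 2.47 FPKM with ARID1B. The groups met at 2.84 FPKM, and vector replicate 2 was the highest. With means of 3.63 ± 1.10 and 2.62 ± 0.193 FPKM (SD, n = 3) the log2 change was -0.33 (SE 0.177, limma adjusted p = 0.568), -0.14 without vector replicate 2 and -0.15 with GC content and length corrected for.

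STAT2 (ENSG00000170581), the interferon-activated transcription factor that pairs with IRF9, stood at 23.6, 8.40 and 21.2 FPKM in the vector libraries and 12.4, 19.3 and 13.4 FPKM with ARID1B, so that the groups overlapped and vector replicate 2 was the lowest. Means of 17.7 ± 8.17 and 15.0 ± 3.71 FPKM (SD, n = 3) gave a log2 change of -0.13 (SE 0.390, limma adjusted p = 0.907). Without vector replicate 2 this was -0.57 (adjusted p = 0.155). IFI16 (ENSG00000163565), a sensor of DNA, had the same order of libraries, at 19.4, 9.37 and 17.3 FPKM with the vector and 11.8, 17.0 and 13.1 FPKM with ARID1B. Its log2 change was -0.08 (SE 0.283, limma adjusted p = 0.921) from means of 15.4 ± 5.31 and 14.0 ± 2.68 FPKM (SD, n = 3), and -0.38 without vector replicate 2. IRF1 (ENSG00000125347), a factor induced mainly by interferon gamma, stood at 2.11, 1.39 and 1.93 FPKM with the vector and at 1.85, 2.03 and 1.77 FPKM with ARID1B. Again the vector group spanned the ARID1B values, with a log2 change of 0.05 (SE 0.126, limma adjusted p = 0.899), or -0.07 without vector replicate 2.

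Among the effectors the median log2 change was 0.00 over the 15 tested, with 8 positive and 7 negative. USP18 (ENSG00000184979), a protease that removes ISG15 from proteins and restrains the interferon receptor, stood at 5.57, 3.99 and 5.65 FPKM with the vector and 3.08, 4.16 and 3.44 FPKM with ARID1B. Only vector replicate 2 reached into the ARID1B range, and only ARID1B replicate 2 was above it. From means of 5.07 ± 0.936 and 3.56 ± 0.549 FPKM (SD, n = 3) the log2 change was -0.41 (SE 0.159, limma adjusted p = 0.449), and -0.54 without vector replicate 2 (adjusted p = 0.0714). ISG15 (ENSG00000187608), the ubiquitin-like protein itself, went the other way between libraries, at 24.5, 42.9 and 28.4 FPKM with the vector and 36.2, 25.0 and 31.4 FPKM with ARID1B. Here vector replicate 2 was the highest and vector replicate 1 the lowest. Its means of 31.9 ± 9.69 and 30.9 ± 5.64 FPKM (SD, n = 3) differed by a log2 change of -0.02 (SE 0.241, limma adjusted p = 0.975), or 0.20 without vector replicate 2. UBE2L6, the enzyme that conjugates ISG15, lay between 7.55 FPKM in vector replicate 2 and 15.6 FPKM in vector replicate 1, with ARID1B libraries from 10.0 to 12.5 FPKM (log2 change -0.14, and -0.44 without vector replicate 2).

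IFITM proteins sit in membranes and hinder the entry of viruses. IFITM2 (ENSG00000185201) stood at 48.2, 45.3 and 47.7 FPKM with the vector and 39.5, 37.5 and 38.0 FPKM with ARID1B. The groups were clear of each other, and vector replicate 2 did not stand apart. Means of 47.1 ± 1.54 and 38.3 ± 1.02 FPKM (SD, n = 3), a ratio of 0.814, gave a log2 change of -0.29 (SE 0.101, limma adjusted p = 0.410), which was -0.08 with GC content and length corrected for. Its neighbor IFITM3 (ENSG00000142089) stood at 125, 110 and 126 FPKM with the vector and 118, 112 and 108 FPKM with ARID1B, where the groups overlapped (log2 change -0.09, SE 0.117, limma adjusted p = 0.788, and -0.15 without vector replicate 2). IFITM1 was lower, between 2.73 and 5.75 FPKM, with a log2 change of -0.33 (-0.59 without vector replicate 2) and overlapping groups. These genes are near copies of each other. Of the 50-base windows of their transcripts, 42.3% in IFITM1, 20.3% in IFITM3 and 15.8% in IFITM2 also occur in another gene, so that reads could be split between them and the level of each is uncertain. In USP18, 23.4% of windows are shared, nearly all with USP41, which stayed at or below 0.154 FPKM.

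OAS3 (ENSG00000111331), the largest of the oligoadenylate synthetases and the only listed one above the filter, stood at 1.16, 0.521 and 1.08 FPKM with the vector and 1.42, 1.22 and 1.33 FPKM with ARID1B. The lowest ARID1B value was just above the highest vector value. Its means of 0.920 ± 0.347 and 1.32 ± 0.102 FPKM (SD, n = 3) gave a log2 change of 0.29 (SE 0.151, limma adjusted p = 0.556), which was 0.13 without vector replicate 2. The IFIT genes, whose products bind viral RNA, had vector replicate 2 as their lowest library. IFIT1 was at 0.900 FPKM there and at 2.81 to 4.17 FPKM in the other 5 libraries, and IFIT2 at 1.05 FPKM there and 3.43 to 4.22 FPKM elsewhere. IFIT3 (3.49 against 6.02 to 8.25 FPKM) and IFIT5 (4.62 against 6.11 to 7.31 FPKM) followed them. With all 6 libraries their log2 changes were 0.24, 0.45, 0.02 and 0.19, and without vector replicate 2 they were -0.21, 0.06, -0.33 and 0.04. The other effectors tested were IFI6, IFI35, IFI44 and SAMHD1, a hydrolase of deoxynucleotides, with log2 changes of 0.21, -0.16, 0.00 and 0.11 and overlapping groups in each. Without vector replicate 2 these were 0.04, -0.35, -0.20 and -0.08.

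**Figure D4:**
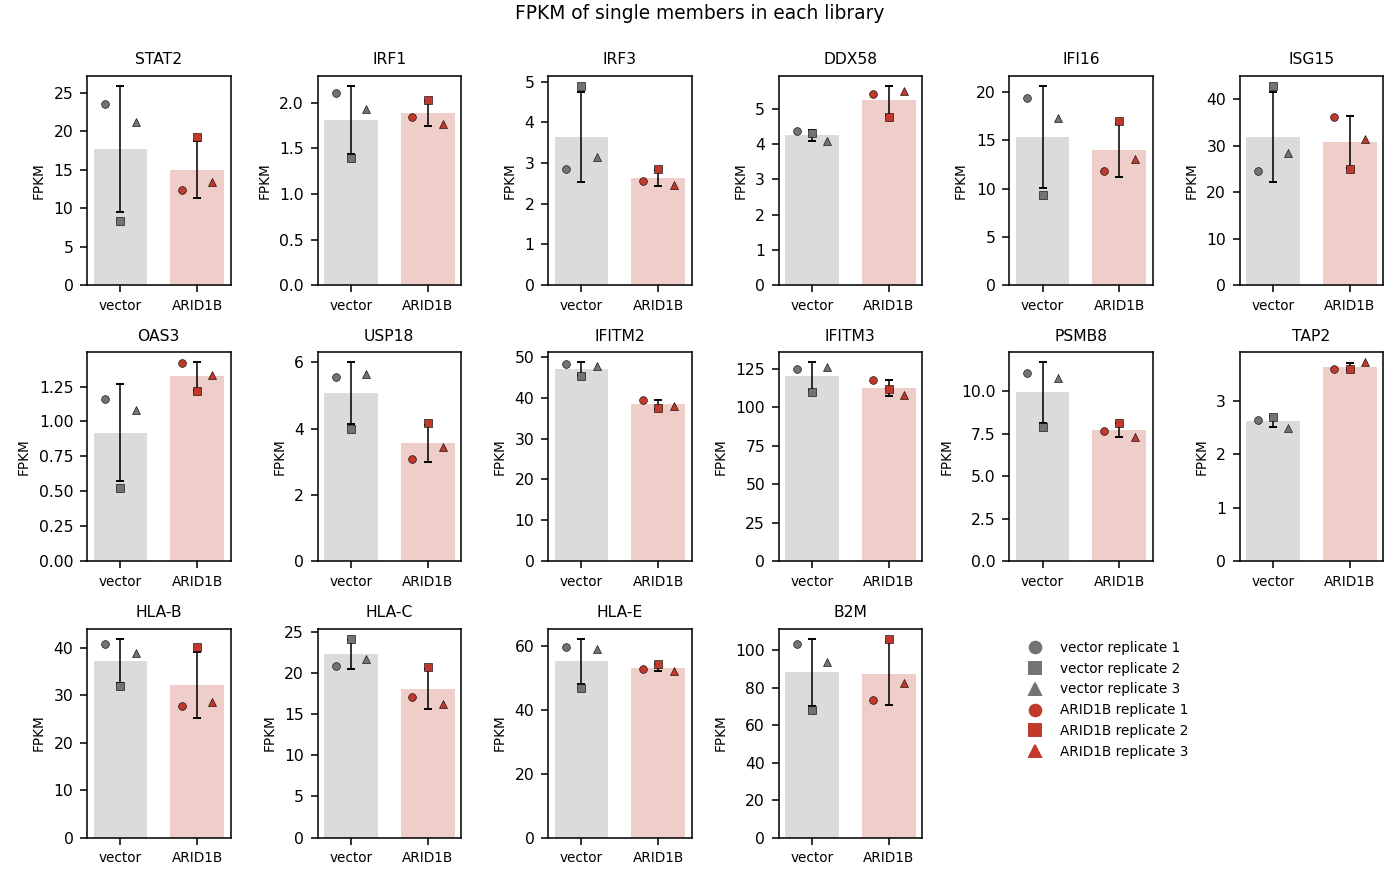
FPKM of the 16 members given library by library, with gray vector and red ARID1B points, bars for the mean and whiskers for the SD of 3 libraries, all axes starting at 0. The marker shape gives the replicate number. The groups are apart in DDX58, OAS3, IFITM2, TAP2 and, narrowly, HLA-C, and overlap in the other panels.

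Genes of antigen presentation had a median log2 change of -0.13 over all 8, with 2 positive and 6 negative. TAP2 (ENSG00000204267), a chain of the peptide transporter, had the smallest p of all members. It stood at 2.65, 2.70 and 2.50 FPKM with the vector and 3.60, 3.60 and 3.72 FPKM with ARID1B. The spread within each group was small and the groups did not overlap. Means of 2.62 ± 0.107 and 3.64 ± 0.0685 FPKM (SD, n = 3), a ratio of 1.39, gave a log2 change of 0.36 (SE 0.0884, limma adjusted p = 0.306), and one of 0.38 without vector replicate 2 (adjusted p = 0.0515). The table holds TAP2 in a second row (ENSG00000250264) that stayed at or below 0.00402 FPKM and shares 35.8% of the windows of the first. Of the windows of the second row, 96.6% also occur in other genes, so reads of both rows may have been split or dropped in counting. TAP1, the partner chain, was also higher in every ARID1B library, at 6.84 to 7.28 FPKM against 6.16 to 6.44 FPKM, with a log2 change of 0.15 (adjusted p = 0.622).

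PSMB8 and PSMB9 encode catalytic subunits of the immunoproteasome and lie beside TAP1 and TAP2 on chromosome 6. PSMB8 (ENSG00000204264) stood at 11.1, 7.89 and 10.8 FPKM with the vector and 7.69, 8.13 and 7.31 FPKM with ARID1B. Vector replicate 2 lay among the ARID1B libraries and the other vector libraries above all of them. With means of 9.91 ± 1.76 and 7.71 ± 0.414 FPKM (SD, n = 3) the log2 change was -0.31 (SE 0.148, limma adjusted p = 0.520), and without vector replicate 2 it was -0.45 (adjusted p = 0.0473). It was -0.20 with GC content and length corrected for. PSMB9 was lower and had the same shape, at 1.75, 0.577 and 1.70 FPKM with the vector and 0.694, 0.967 and 0.852 FPKM with ARID1B. Its log2 change was -0.31 (adjusted p = 0.673), and -0.57 without vector replicate 2 (adjusted p = 0.0411). With a mean of 1.34 FPKM with the vector and 0.838 FPKM with ARID1B it reached the filter only through the group where it is high. Of its windows, 12.1% are shared with PSMB8-AS1, an antisense gene at or below 0.148 FPKM, and whether strand was used in counting is not given in the sources used here.

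The listed class I heavy chains HLA-B, HLA-C and HLA-E and their light chain B2M were abundant in all libraries. HLA-F and HLA-G, which are not among the members, stayed at or below 0.00150 and 0.00477 FPKM. HLA-B (ENSG00000234745) stood at 40.8, 31.9 and 38.9 FPKM with the vector and 27.6, 40.2 and 28.6 FPKM with ARID1B, with ARID1B replicate 2 among the high vector libraries (log2 change -0.22, SE 0.185, limma adjusted p = 0.710). HLA-C (ENSG00000204525) stood at 20.9, 24.2 and 21.7 FPKM with the vector and 17.1, 20.8 and 16.3 FPKM with ARID1B. The groups were separated only by the step from 20.8 to 20.9 FPKM, and the log2 change was -0.29 (SE 0.133, limma adjusted p = 0.506), which was -0.01 with GC content and length corrected for. HLA-E (ENSG00000204592), a ligand of receptors on natural killer cells, stood at 59.6, 46.9 and 58.9 FPKM with the vector and 52.9, 54.4 and 52.1 FPKM with ARID1B. All ARID1B values fell inside the vector range (log2 change -0.05, SE 0.132, limma adjusted p = 0.906, and -0.16 without vector replicate 2). B2M (ENSG00000166710), the light chain of all class I molecules, stood at 103, 68.3 and 93.4 FPKM with the vector and 73.6, 106 and 82.3 FPKM with ARID1B. Its means of 88.1 ± 17.7 and 87.2 ± 16.6 FPKM (SD, n = 3) had a ratio of 0.990 (log2 change -0.01, SE 0.210, limma adjusted p = 0.988, and -0.18 without vector replicate 2). HLA genes are polymorphic and similar to each other, with 6.71%, 5.13% and 2.54% of windows of HLA-C, HLA-E and HLA-B shared with other genes, so their levels depend on how the reads of this line map to the reference alleles.

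The members were also divided by the ISRE core, as a description with no test. The 13 members tested whose promoter held the core, among them ISG15, OAS3, IFITM3, PSMB8, TAP1, TAP2 and B2M printed above, had a median log2 change of 0.02, and the 10 with a window lacking it one of -0.14. Without vector replicate 2 the medians were -0.15 and -0.33. Vector replicate 2 was the lowest library in 7 of the 13 and in 7 of the 10, beside 37.5% of all genes tested. TAP2 and PSMB8 both hold 1 core and B2M, ISG15 and IFITM3 hold 2, and their log2 changes ran from -0.31 to 0.36.

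A further 74 listed genes of the pathway were read beside the members. Of these 53 were tested and limma placed 0 under an adjusted p of 0.05. Under an unadjusted p of 0.05, 1 was higher and 2 lower, beside 4.64% and 5.94% of all genes tested. The groups did not overlap in 8 on the higher side and 5 on the lower side, beside 9.44% and 11.1% of all genes tested. The 53 had a median log2 change of 0.09, with 35 positive and 18 negative, where 47.6% of all genes tested were positive. Without vector replicate 2 the median was -0.05, with 23 positive and 30 negative, where 47.8% of all genes tested were positive. Changes were positive in all 6 receptor chains and kinases, at a median of 0.17, but in 4 of them without vector replicate 2, at a median of 0.04. IFNAR1, a chain of the type I receptor, stood at 10.9, 6.85 and 10.2 FPKM with the vector and 12.3, 12.0 and 14.0 FPKM with ARID1B (log2 change 0.44, SE 0.182, limma adjusted p = 0.478, and 0.25 without vector replicate 2). IFNGR1, a chain of the receptor for interferon gamma, lay at 7.05 to 7.39 FPKM with the vector and 8.0 to 10.3 FPKM with ARID1B (log2 change 0.28, adjusted p = 0.486).

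Most interferon genes themselves were at 0 FPKM. Of 9 listed, 8 (IFNB1, IFNA1, IFNA2, IFNG, IFNL1, IFNL2, IFNL3 and IFNK) were listed at 0 in every library, where 3 reads would have given 0.0268 to 0.0645 FPKM, depending on the gene and the library. That limit covers counting error only, and windows shared with other genes were not examined for the interferon genes. IFNE, an interferon known from reproductive epithelium, lay between 0.127 FPKM in vector replicate 1 and 1.39 FPKM in vector replicate 2, with ARID1B libraries at 0.155 to 0.394 FPKM. Among 6 tested adaptors and kinases of nucleic acid sensing, TMEM173 (the adaptor STING) lay at 3.41 to 4.43 FPKM with the vector and 2.41 to 2.95 FPKM with ARID1B, so that the groups did not overlap (log2 change -0.40, SE 0.123, limma adjusted p = 0.360). IKBKE, a kinase that activates IRF3, was also lower in every ARID1B library, at 3.91 to 4.19 FPKM against 4.21 to 5.07 FPKM (log2 change -0.20, adjusted p = 0.570).

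Of 29 other interferon-induced genes tested, 19 had a positive and 10 a negative change, with a median of 0.09. Without vector replicate 2 this turned to 10 positive and 19 negative, with a median of -0.10. TRIM22, an antiviral ubiquitin ligase, stood at 7.45, 2.92 and 6.23 FPKM with the vector and 7.93, 10.9 and 8.81 FPKM with ARID1B (log2 change 0.71, SE 0.299, limma adjusted p = 0.480, and 0.38 without vector replicate 2). DDX60L, a helicase relative, lay at 0.818 to 1.37 FPKM against 1.58 to 1.83 FPKM (log2 change 0.34, adjusted p = 0.425, and 0.22 without vector replicate 2). Among 8 other class I presentation genes tested, 4 were positive and 4 negative. PSMB10, the third catalytic subunit of the immunoproteasome, lay at 1.70 to 1.93 FPKM with the vector and 1.20 to 1.53 FPKM with ARID1B (log2 change -0.26, adjusted p = 0.438), and CANX, a chaperone of heavy chain folding, at 61.6 to 93.8 FPKM and 99.8 to 108 FPKM (log2 change 0.40, adjusted p = 0.495, and 0.22 without vector replicate 2).

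Of 4 feedback inhibitors tested, 3 had a positive and 1 a negative change. SOCS1, which blocks JAK kinases and was picked out after its values were seen, stood at 18.9, 2.85 and 19.3 FPKM with the vector and 7.89, 8.34 and 8.15 FPKM with ARID1B. The 3 ARID1B libraries lay close together between the 2 levels of the vector group. Its log2 change was -0.35 (SE 0.639, limma adjusted p = 0.845) with all libraries and -1.14 (adjusted p = 0.0131) without vector replicate 2. SOCS3 stood at 10.9 to 11.7 FPKM with the vector and 9.35, 27.1 and 13.3 FPKM with ARID1B, where replicate 2 was the highest (log2 change 0.39, adjusted p = 0.724). PIAS1 had a log2 change of 0.25 (adjusted p = 0.656), or 0.07 without vector replicate 2.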

How the data were processed

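Stranded mRNA libraries from 3 vector and 3 ARID1B samples were grouped by the labels. The authors deposited FPKM values per gene, and the submitters' processing notes list, without roles, the build hg19 and the tools HTSeq 0.5.3p9, TopHat2 2.0.11 and DESeq2. Which of these made the FPKM values is not given in the sources used here. The 10416 of 57232 genes averaging 1 FPKM or more were tested on log2(FPKM + 1) with limma 3.58.1 in R 4.3.3, two-sided and with its variance trend, with Benjamini-Hochberg adjustment over all of them and a threshold of 0.05. The pseudocount of 1 understates changes of low genes. Library totals and reads were read from the whole-read steps in low FPKM values (tolerance 0.002 reads), with totals of 63386813 to 91924514 and medians of 80528432 (vector) and 74121620 (ARID1B). Both methods were tested on simulated data. The members and lists were chosen with earlier results of these data known. Library values were given for the 3 members of each role with the smallest p and the 3 with the highest mean, and of each further list the 2 genes with the smallest p were named. Alternatives were the replicate number as a block, leaving out single libraries, quantile normalization, rescaling by median ratios, a fit lacking the variance trend, a smaller pseudocount (0.1), all genes unfiltered, a filter at 5 FPKM, and a GC and length correction (splines with 5 degrees of freedom, 97.9% of genes). Leaving out both libraries numbered 3 was added after seeing the data. Some genes of this pathway are not reported here.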

Additional observations from a re-analysis of the deposited data

How the results depend on the processing

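No member was past the threshold in the higher direction in any of the 15 alternatives, and none in the lower direction in 14 of them. With each library left out in turn the count of lower members ran from 0 to 2 and that of other pathway genes past the threshold from 0 to 1, in both cases with the upper end without vector replicate 2. Over all genes tested 3 passed, against 125 higher and 199 lower without vector replicate 2, 5 after GC and length correction and 0 with no filter, with the replicate block, with both libraries numbered 3 left out and without each of the other 5 libraries. ARID1B itself missed the threshold in 8 of 15 alternatives, with log2 changes of 3.14 to 3.8 over the 15. Members higher in every ARID1B library numbered 1 of 16 tested at a mean of at least 5 FPKM, beside 10.1% of all genes. Members lower in every ARID1B library numbered 1 under median-ratio rescaling (10.6% of all genes) and 1 under quantile normalization (11.1%). After GC and length correction they numbered 0 (10.1%). With single libraries left out they ran from 2 to 13, with 13 without vector replicate 2 (23.9%) and 6 without ARID1B replicate 2 (14.8%). The median change of signaling and sensing genes was 0.11 with both libraries numbered 3 left out and ran from -0.22 to 0.12 with single libraries left out. The median of all members was 0.03 after GC and length correction. The cause of these shifts was not tested.

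Signs turned for some members and other pathway genes. Not all were near 0 with all libraries, where HLA-B was at -0.22, PSMB10 at -0.26 and SOCS3 at 0.39. With both libraries numbered 3 left out, log2 changes were 0.12 for STAT2, 0.06 for IFI16, 0.07 for B2M and 0.02 for HLA-E. Under quantile normalization they were 0.04 for IFITM3, 0.03 for ISG15, 0.04 for B2M and 0.02 for HLA-E, and under median-ratio rescaling 0.00 for B2M. After GC and length correction they were 0.15 for IFITM3, 0.31 for ISG15, 0.07 for HLA-E, 0.03 for HLA-B and 0.03 for PSMB10, and with no turn of sign -0.23 for IFI16, 0.27 for IFNAR1, 0.13 for DDX60L and 0.05 for PIAS1. With single libraries left out the ranges were -0.07 to 0.12 for IRF1, -0.57 to 0.12 for STAT2, -0.38 to 0.11 for IFI16, -0.19 to 0.20 for ISG15, -0.18 to 0.11 for B2M, -0.16 to 0.01 for HLA-E and -0.02 to 0.70 for SOCS3. None of these changes passed the threshold. The replicate block left 0 members past the threshold, in a fit where 0 of all 10416 genes tested passed higher and 0 lower. The numbers share no stated origin, and the deviations of equal numbers correlated at -0.46, -0.43 and -0.17, none of them positive. With vector replicate 2 apart and each replicate 3 near a mixture, these values cannot decide whether the numbers pair the samples. Depth limits OAS1 (1 to 23 reads) and OASL (2 to 18 reads), while gene length bears on IRF7 and IFIH1 and shared windows on IRF9.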
